A study of Mus musculus with 282 samples.

Results

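The genes described here are the epidermal growth factor (EGF) receptor ligands Areg, Ereg, Hbegf, Tgfa, Epgn and Btc and the receptors Egfr, Erbb2 and Erbb3, followed in single basal cells of the mouse prostate. The 9 genes were taken by name from the 48440 gene rows of both deposited count tables, and all 9 were found in both. They were compared between inflamed and naive cells within each of the batches 2 and 3.

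The cells came from male POET3 mice, a transgenic line that expresses ovalbumin in the prostate and serves as a model of prostatitis. Of 282 cells, 85 inflamed and 55 naive cells belonged to batch 2, and 78 inflamed and 64 naive cells to batch 3. The sources used here state neither the age of the mice, nor how inflammation was induced, nor how many mice stand behind a batch, nor the sort gates. In both conditions cells were released with collagenase and trypsin, sorted as basal prostate stem cells by CD49f, Sca-1, CD31, CD45 and a viability dye, captured on a Fluidigm C1 instrument and sequenced as whole-transcript cDNA.

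EGF family ligands are made as membrane-anchored precursors, are released by metalloproteinases of the ADAM family and act on the same cell or its neighbours. Areg, Epgn and Tgfa bind the EGF receptor (Egfr), while Ereg, Hbegf and Btc bind both Egfr and Erbb4. Erbb2 binds no ligand of its own and is the preferred dimer partner of the others, and Erbb3 binds neuregulins and has a weak kinase. Active dimers signal through Ras, ERK and PI3 kinase, and in epithelia such as the prostate this supports growth and repair of the basal layer.

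Of the 6 ligands, 4 are neighbours. Epgn (ENSMUSG00000035020, chr5:91027464-91035215, plus strand), Ereg (ENSMUSG00000029377, chr5:91074622-91093646, plus strand), Areg (ENSMUSG00000029378, chr5:91139599-91148432, plus strand) and Btc (ENSMUSG00000082361, chr5:91357261-91402994, minus strand) span 375.5 kb of GRCm38, and the GENCODE annotation places 0 other protein-coding genes between them. The values below differ within this cluster, so the promoters of a pair of its genes are shown, each as a RefSeq window of 300 bases that spans the transcription start in build GRCm38.p6. Capitals mark a match to the cAMP response element (CRE, TGACGTCA), which was searched on both strands together with the AP-1 element (TGANTCA).
Areg (chr5:91139349-91139648, plus strand): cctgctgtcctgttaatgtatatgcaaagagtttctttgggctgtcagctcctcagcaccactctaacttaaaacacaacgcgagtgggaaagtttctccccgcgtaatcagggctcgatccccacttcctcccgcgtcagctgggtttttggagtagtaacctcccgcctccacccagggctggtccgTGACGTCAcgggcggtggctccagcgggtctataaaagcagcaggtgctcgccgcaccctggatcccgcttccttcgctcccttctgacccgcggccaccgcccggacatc
Epgn (chr5:91027267-91027566, plus strand): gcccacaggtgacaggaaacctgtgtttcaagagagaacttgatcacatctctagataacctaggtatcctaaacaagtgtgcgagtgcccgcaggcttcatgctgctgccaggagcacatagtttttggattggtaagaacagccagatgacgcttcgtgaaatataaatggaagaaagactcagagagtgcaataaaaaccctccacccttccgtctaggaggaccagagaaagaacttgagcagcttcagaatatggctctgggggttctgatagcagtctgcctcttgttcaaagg
The Areg window held 1 CRE match, which began 61 bases before the start. Neither motif was found in the Epgn, Btc, Tgfa, Egfr and Erbb2 windows. Over all 32851 windows of the table, 588 (1.79%) held a CRE match and 2565 (7.81%) an AP-1 match. A CRE match does not contain an AP-1 match, and a match is a description of these letters only.

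Once cells below 1000 detected genes or 50000 counts had been removed, 80 inflamed and 53 naive cells remained in batch 2, and 76 inflamed and 59 naive cells in batch 3. Their median depth was 1001872 and 998864.5 counts in inflamed cells and 971069 and 840863 counts in naive cells of batches 2 and 3. The median cell had 4683 and 4108.5 detected genes in inflamed cells and 4739 and 3432 in naive cells. No pair of cells held identical counts. All 10 basal markers had reads. Of 17 leukocyte markers 15 were at 0 in every sum, Ptprc (CD45) among them. The 14 luminal markers summed to 3031 and 2775 CPM (counts scaled to a total of 1e6 per sum) in inflamed cells and 1664 and 2312 CPM in naive cells, and 4 of the 14 were higher and 6 lower in the inflamed sums of both batches. Stromal markers summed to 3396 and 4537 CPM in inflamed cells and 4004 and 4369 CPM in naive cells, nearly all of it Dcn, with Lum, Des, Myh11 and Pdgfrb at 0. Of the 12 stromal markers, 2 were higher and 2 lower in the inflamed sums of both batches. Acta2 went opposite ways, with 0.495 and 35.2 CPM in the inflamed sums and 31.8 and 0.274 CPM in the naive sums. Within this list Rgs5, a pericyte marker named after its values were seen, had 18.5 and 103.2 CPM in the inflamed sums and 0 and 0.0421 CPM in the naive sums. Reads of Rgs5 were found in 22.5% and 34.2% of inflamed cells, against 0 of 53 (up to 6.72%) and 3.39% of naive cells.

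Cells are not replicates, and the labels name no animal. The kept cells were therefore added up into 1 sum per condition and batch, which gave 4 sums, and these were tested with edgeR's quasi-likelihood test with the batch in the model. Of 14713 genes tested, 0 (0.0%) were higher and 0 (0.0%) lower in inflamed cells at a Benjamini-Hochberg adjusted p under 0.05, and the lowest adjusted p was 0.568. At an unadjusted p under 0.05, 742 genes (5.04%) were higher and 475 (3.23%) lower. DESeq2 on the same sums called 927 genes (6.3%) higher and 534 lower. None of the 9 genes passed edgeR's adjusted threshold, so the differences below are differences between these sums.

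**Figure D1:**
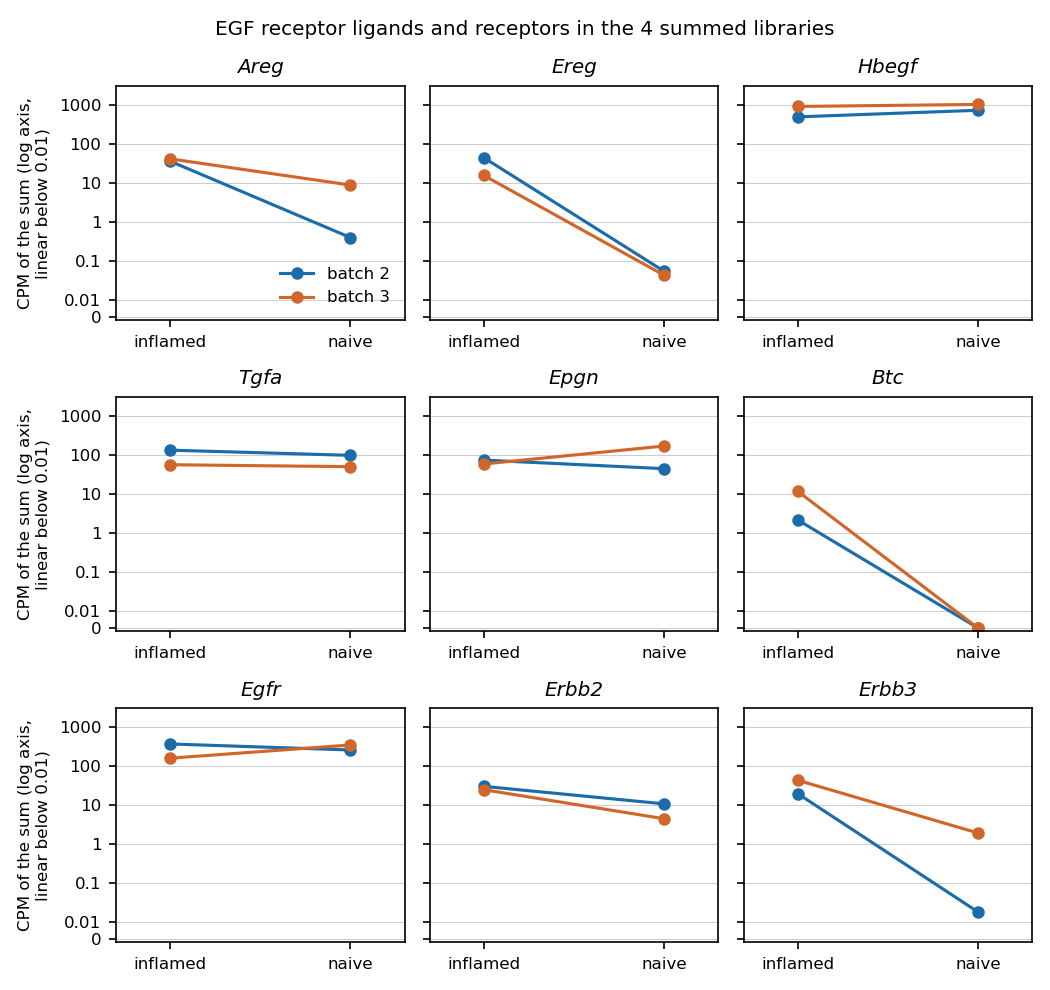
Level of each ligand and receptor in the 4 sums, as CPM on a log axis that is linear below 0.01, with inflamed on the left and naive on the right of each panel and a line joining the sums of 1 batch. Areg, Ereg, Btc, Erbb2 and Erbb3 sloped down towards naive in both batches, while the lines of Epgn and Egfr crossed.

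Areg, Ereg, Btc and Erbb3 stood at least 4-fold higher in the inflamed sums of both batches, Erbb2 stood higher by 2.81-fold and 5.56-fold and Tgfa by 1.36-fold and 1.12-fold, Hbegf stood slightly lower, and Epgn and Egfr went opposite ways in the batches. Thus 6 of the 9 were higher in both batches, where 30.9% of all genes tested were, and 1 was lower in both, where 27.6% were. The 4-fold difference in both batches was seen for 4 of the 9, against 8.76% of all genes. The median log2 difference of the 9 genes was 1.49 in batch 2 and 2.23 in batch 3, and that of all genes tested was 0.05 and 0.06. At an unadjusted p under 0.05, edgeR placed 3 of the 9 higher (Ereg, Btc and Erbb3) and 0 lower. Over all genes tested, 5.04% were higher and 3.23% lower at that threshold. Ereg and Btc had at most 3 reads in a naive sum, and Erbb3 had 1 and 89, so these genes passed the filter on low counts through the inflamed sums, and their place in these counts was partly set by that filter. For Btc, 1 cell gave 99.4% and 92.5% of the reads of the inflamed sums, so its place in these counts rests on very few cells. The summed luminal markers and Rgs5 were also higher in the inflamed sums of both batches, and their part in these differences was not tested.

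Among the ligands, amphiregulin (Areg) is known as a ligand induced in epithelia by injury and cytokines. It had 35.4 CPM in the inflamed sum of batch 2 and 40.7 CPM in that of batch 3, against 0.390 and 8.66 CPM in the naive sums. The inflamed sums lay close together and the naive sums far apart. Between the groups there was no overlap, but how many of all genes tested separate in this way was not counted. In naive batch 3 a single cell gave 85.4% of the 411 reads, and in naive batch 2 the gene had 22 reads in all. The inflamed sums were 90.9-fold (counting interval 59.9 to 145.3) and 4.70-fold (4.24 to 5.23) higher, and the fit gave a log2 difference of 4.34 ± 1.84 (SE, 95% interval -0.97 to 9.65, adjusted p = 0.612 by edgeR). Counting intervals, here and below, treat each read as an independent count and leave out the spread between cells. They are therefore narrower than the real uncertainty of a fold. Without the cell richest in Areg in each sum, the levels were 30.3 and 28.8 CPM in inflamed cells against 0.165 and 1.3 CPM in naive cells.

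Areg reads were found in 29 of 80 inflamed cells of batch 2 (36.25%, exact Clopper-Pearson 95% interval 25.8 to 47.8%) and in 15 of 76 of batch 3 (19.7%, 11.5 to 30.5%). In naive cells they were found in 3 of 53 (5.66%, 1.18 to 15.7%) and 5 of 59 (8.47%, 2.81 to 18.7%). The intervals of batch 2 were apart and those of batch 3 overlapped. With every cell thinned to 500000 counts, the shares were 34.3% and 19.4% in inflamed cells and 6.52% and 5.45% in naive cells. Within cells that had reads, the median level was 44.2 and 40 CPM in inflamed cells and 5.66 and 29.8 CPM in naive cells, and the highest cells reached 798.5 and 879.7 CPM in inflamed cells, against 7.41 and 282.9 CPM in naive cells.

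Epiregulin (Ereg) lies next to Areg and activates both Egfr and Erbb4. It had 43.4 and 15.2 CPM in the inflamed sums of batches 2 and 3, from 3424 and 1158 reads, and 0.0532 and 0.0421 CPM in the naive sums, from 3 and 2 reads. The naive level was thus at the limit of detection in both batches. The inflamed sums were 817-fold higher in batch 2 (counting interval 279 to 3964) and 361.5-fold higher in batch 3 (99.9 to 2989). The fitted log2 difference was 9.05 ± 1.67 (SE, adjusted p = 0.568 by edgeR). The reads were spread unevenly, and 1 cell gave 25.1% of them in inflamed batch 2 and 71.2% in inflamed batch 3. Without those cells, the levels were 33 and 4.44 CPM in inflamed cells, against 0 and 0.0216 CPM in naive cells treated alike. Across strands, the antisense gene Gm19610 overlaps Ereg and had 87 reads in inflamed batch 3 and 0 in the other sums.

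At least 1 Ereg read was found in 32.5% of inflamed cells of batch 2 (22.4 to 43.9%) and 13.2% of batch 3 (6.49 to 22.9%), against 1.89% (0.05 to 10.1%) and 3.39% (0.41 to 11.7%) of naive cells. With at least 5 reads asked for, the inflamed shares were 15% and 9.21%. The naive counts were then 0 of 53 and 0 of 59 cells, which allow shares of up to 6.72% and 6.06%. The typical positive cell was low, with a median of 3.46 and 8.46 CPM in inflamed cells with reads, while the highest reached 910.4 and 786.0 CPM.

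**Figure D2:**
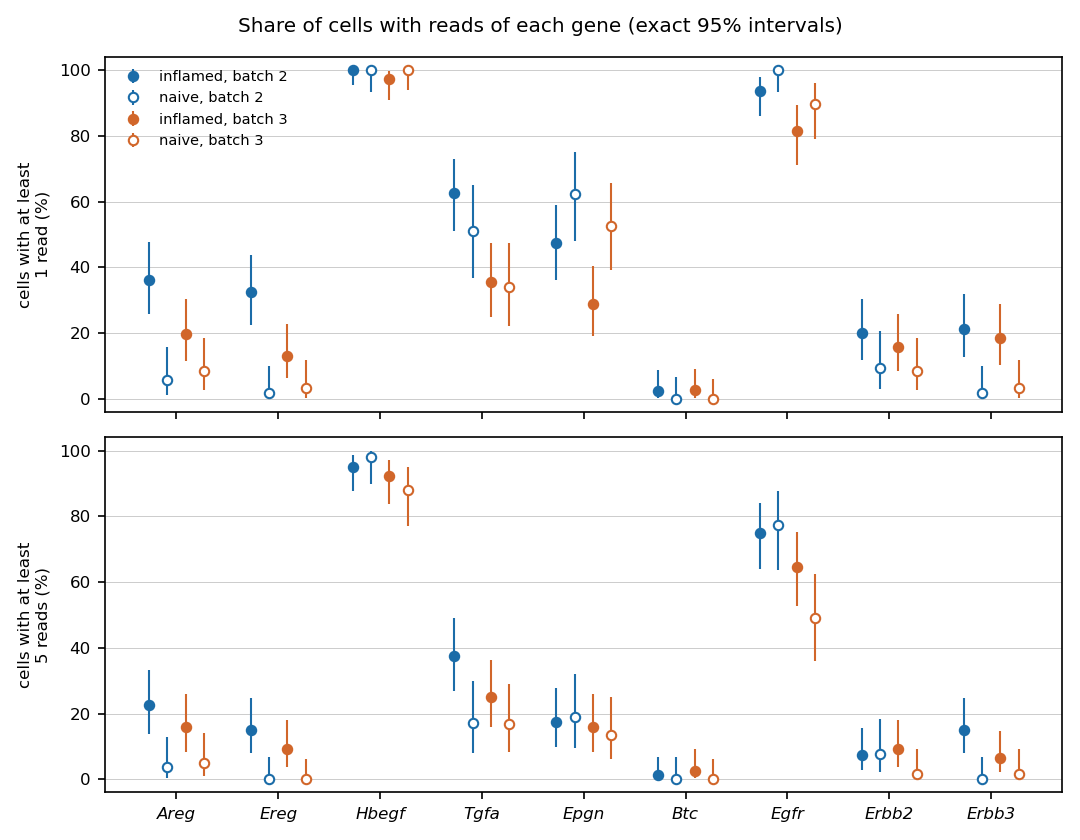
Share of cells with at least 1 read (upper panel) and at least 5 reads (lower panel) of each gene, with exact 95% intervals, filled points for inflamed and open points for naive cells. Areg, Ereg and Erbb3 lay higher in inflamed cells in both panels, and Hbegf was found in nearly all cells of every group.

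Betacellulin (Btc), another ligand of Egfr and Erbb4, was rare. It had 2.12 and 11.5 CPM in the inflamed sums of batches 2 and 3 and 0 reads in both naive sums. These reads came from 2 of 80 and 2 of 76 inflamed cells, and 1 cell gave 99.4% of them in batch 2 and 92.5% in batch 3. Against a floor of 3 counts per sum, the inflamed sums were at least 39.9-fold and at least 182.1-fold higher. Without the richest cell of each sum, the inflamed levels were 0.0129 and 0.881 CPM, the former from 1 read, below that floor. In naive cells, 0 of 53 and 0 of 59 allow shares of up to 6.72% and 6.06%, which cover the inflamed shares of 2.5% and 2.63%. A difference in the share of Btc cells was therefore not detectable at this number of cells.

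Heparin-binding EGF-like growth factor (Hbegf, ENSMUSG00000024486, chr18:36504927-36515805, minus strand) was the ligand that nearly every cell carried. It had 484.7 and 896.8 CPM in the inflamed sums of batches 2 and 3 and 715.7 and 1010 CPM in the naive sums. The naive sum was the higher one within each batch, but the batches differed more than the conditions and the groups overlapped. The inflamed sums stood at 0.677 and 0.888 of the naive ones, with a log2 difference of -0.37 ± 0.28 (SE, 95% interval -1.17 to 0.44, adjusted p = 0.805 by edgeR). Reads were found in 100% and 97.4% of inflamed cells and in 100% and 100% of naive cells. The median cell had 273.5 and 542.9 CPM in inflamed cells against 324.0 and 354.4 CPM in naive cells, so in batch 3 the median cell and the sum differed in opposite directions. Without the richest cell of each sum, the inflamed level in batch 3 was 849.0 CPM and the naive one 838.1 CPM.

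Transforming growth factor alpha (Tgfa, ENSMUSG00000029999, chr6:86195223-86275719, plus strand), a growth factor that epithelial cells make for their own Egfr, varied more between batches than between conditions. It had 130.1 and 55 CPM in the inflamed sums and 95.8 and 49 CPM in the naive sums of batches 2 and 3. The log2 difference was 0.30 ± 0.46 (SE, 95% interval -1.03 to 1.63, adjusted p = 0.944 by edgeR). A single cell gave 51% and 48.2% of the naive reads, and without the richest cell of each sum the levels were 111.4 and 37.7 CPM in inflamed cells and 47.9 and 25.9 CPM in naive cells. At least 5 reads were found in 37.5% (26.9 to 49%) and 25% (15.8 to 36.3%) of inflamed cells and in 17% (8.07 to 29.8%) and 16.9% (8.44 to 29%) of naive cells, with overlapping intervals.

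Epigen (Epgn), a low-affinity Egfr ligand, had 72.3 and 57.5 CPM in the inflamed sums and 43.6 and 166.3 CPM in the naive sums of batches 2 and 3. It was 1.66-fold higher in inflamed batch 2 and 2.89-fold lower in inflamed batch 3, and the log2 difference was -0.40 ± 0.79 (SE, 95% interval -2.69 to 1.89, adjusted p = 0.968 by edgeR). The share of cells with a read was nevertheless lower in inflamed cells of both batches, at 47.5% (36.2 to 59%) and 28.9% (19.1 to 40.5%), against 62.3% (47.9 to 75.2%) and 52.5% (39.1 to 65.7%) in naive cells. The intervals overlapped in both batches. At 5 reads the shares came close, at 17.5% and 15.8% in inflamed cells and 18.9% and 13.6% in naive cells, and most positive naive cells held few reads, with a median of 2 in both batches.

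The main receptor, Egfr (ENSMUSG00000020122, chr11:16752203-16918158, plus strand), had 358.8 and 155.003 CPM in the inflamed sums and 251.7 and 337.5 CPM in the naive sums of batches 2 and 3. The sum was 1.43-fold higher in inflamed batch 2 and 2.18-fold lower in inflamed batch 3, and the log2 difference was -0.31 ± 0.54 (SE, 95% interval -1.87 to 1.26, adjusted p = 0.958 by edgeR). The median over cells had the same direction in both batches, with 148.4 and 32 CPM in inflamed cells and 49.1 and 4.74 CPM in naive cells. In naive batch 3 the richest cell alone gave 19.1% of the reads and reached 3431 CPM. Any read was found in 93.75% and 81.6% of inflamed cells and 100% and 89.8% of naive cells, while at least 5 reads were found in 75% and 64.5% of inflamed cells and 77.4% and 49.2% of naive cells. The antisense gene Egfros overlaps Egfr and had 435 and 985 reads in the inflamed sums and 601 and 594 in the naive sums, far fewer than the 28286 and 11786 Egfr reads of inflamed cells and the 14204 and 16023 of naive cells.

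**Figure D3:**
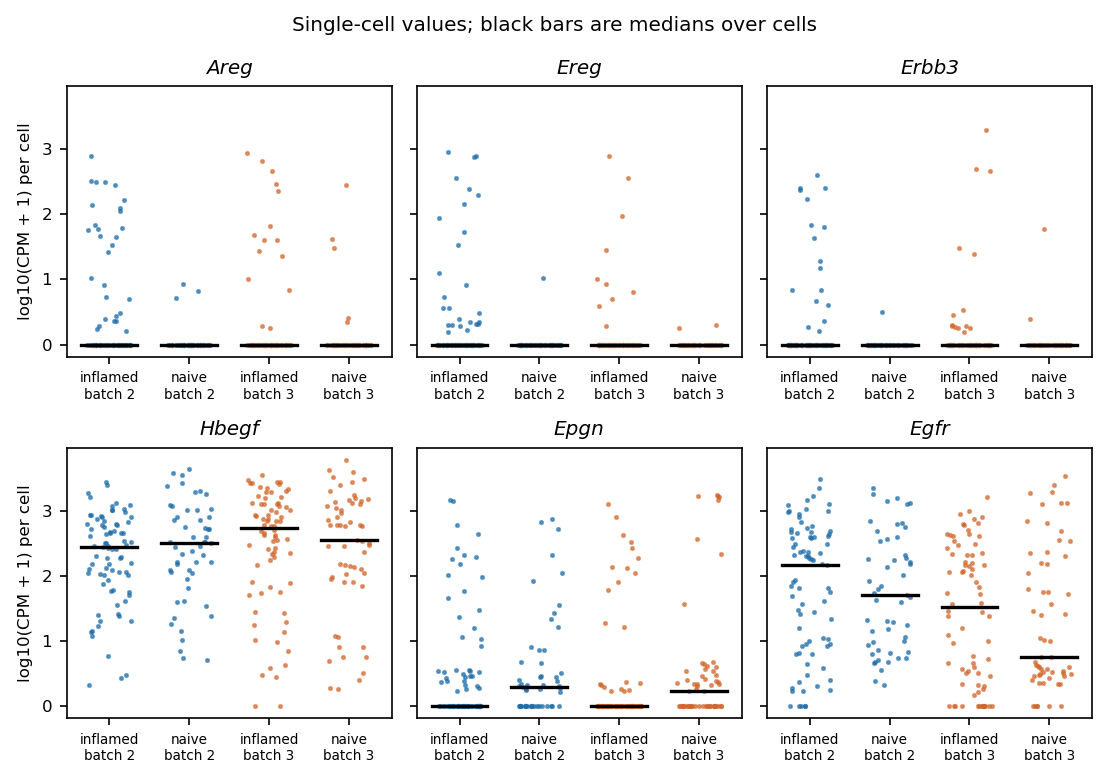
Level of 6 of the genes in each kept cell as log10(CPM + 1), with 1 point per cell, inflamed to the left of naive within each batch and a black bar at the median. Areg, Ereg and Erbb3 were at 0 in most cells of every group and high in a minority of inflamed cells, while the median of Egfr lay higher in inflamed cells of both batches.

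The co-receptor Erbb3 (ENSMUSG00000018166, chr10:128567523-128589652, minus strand), the receptor that couples most directly to PI3 kinase, had 19.2 and 42.2 CPM in the inflamed sums and 0.0177 and 1.87 CPM in the naive sums of batches 2 and 3. Both inflamed sums lay above both naive sums, a separation that was not counted over all genes tested. Naive batch 2 held 1 read, and 98.9% of the 89 reads of naive batch 3 came from 1 cell. The inflamed sum was 1083-fold higher in batch 2, with a counting interval of 194 to 42810, and 22.5-fold higher in batch 3 (18.2 to 28.1). The log2 difference was 6.88 ± 2.38 (SE, adjusted p = 0.568 by edgeR). In inflamed batch 3, 61.3% of the 3206 reads were from 1 cell, and without the richest cell of each sum the levels were 13.3 and 16.5 CPM in inflamed cells and 0 and 0.0217 CPM in naive cells. Any read was found in 21.25% (12.9 to 31.8%) and 18.4% (10.5 to 29%) of inflamed cells, against 1.89% (0.05 to 10.1%) and 3.39% (0.41 to 11.7%) of naive cells, with intervals apart in batch 2 and overlapping slightly in batch 3. After thinning, these shares were 20% and 16.7% in inflamed cells and 0 of 46 cells (up to 7.71%) and 1.82% in naive cells. Over inflamed cells, the rank correlation of Erbb3 with the summed luminal markers was -0.012 in batch 2 and -0.067 in batch 3.

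The co-receptor Erbb2 (ENSMUSG00000062312, chr11:98412470-98437716, plus strand) had 29.3 and 24.1 CPM in the inflamed sums and 10.5 and 4.34 CPM in the naive sums of batches 2 and 3. The inflamed sums were 2.81-fold (2.56 to 3.08) and 5.56-fold (4.81 to 6.45) higher, and the log2 difference was 1.98 ± 1.13 (SE, 95% interval -1.27 to 5.23, adjusted p = 0.701 by edgeR). Few cells carried it: 20% and 15.8% of inflamed cells and 9.43% and 8.47% of naive cells had a read, with overlapping intervals. At 5 reads the shares were 7.5% and 9.21% in inflamed cells and 7.55% and 1.69% in naive cells, and after thinning 11.4% and 15.3% in inflamed cells and 10.9% and 7.27% in naive cells, so in batch 2 they nearly met. A single cell gave 43% and 58.8% of the inflamed reads and 48.3% and 96.6% of the naive reads. Without the richest cell of each sum, the levels were 17.1 and 10 CPM in inflamed cells and 5.65 and 0.149 CPM in naive cells. The gene Mien1 overlaps Erbb2 on the other strand and had 2051 and 2057 reads in the inflamed sums and 1742 and 2150 in the naive sums, against 2313 and 1833 Erbb2 reads in the inflamed sums and 590 and 206 in the naive sums. The overlapping gene thus had about as many reads as Erbb2 in inflamed cells and more reads than Erbb2 in naive cells.

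By DESeq2 on the same sums, 4 of the 9 genes were called higher in inflamed cells, where 6.3% of all genes were. Its adjusted p was 0.00383 for Areg, 1.17e-09 for Ereg, 0.00357 for Btc and 8e-05 for Erbb3. Under the edgeR settings tried, the adjusted p ranged from 0.388 to 0.8 for Areg, from 0.297 to 0.8 for Ereg and Btc and from 0.365 to 0.8 for Erbb3. The calls of these 4 genes therefore depended on the tool, while the fitted differences of both tools were positive. Ereg, Btc and Erbb3 passed the filter on low counts through the inflamed sums. The DESeq2 count of 4 of the 9 was therefore also partly set by that filter.

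Since reads came from whole transcripts, levels of different genes were compared as CPM per kb of exon. Hbegf stood first in every sum, at 100.3 and 185.5 CPM per kb in inflamed cells and 148.05 and 209.0 CPM per kb in naive cells, and Btc stood last. In inflamed cells Epgn (35.9 ± 5.81 CPM per kb), Areg (31.3 ± 3.08), Egfr (22.7 ± 12.7) and Tgfa (14.3 ± 8.18, SD over 2 sums each) followed, and neighbours in that order did not differ beyond their spread. In naive cells Epgn (58.1 ± 48 CPM per kb), Egfr (26 ± 5.36) and Tgfa (11.15 ± 5.09) followed Hbegf, while Areg averaged 3.72 ± 4.81 CPM per kb. Areg was thus the 4th and 2nd of the 9 genes in the inflamed sums of batches 2 and 3 and the 6th and 5th in the naive sums. Ereg averaged 7.11 ± 4.83 CPM per kb in inflamed cells and 0.0115 ± 0.0019 CPM per kb in naive cells, and Erbb3 5.10 ± 2.70 CPM per kb in inflamed cells and 0.157 ± 0.218 CPM per kb in naive cells.

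At least 5 reads of each of 3 or more ligands were found in 25% and 15.8% of inflamed cells of batches 2 and 3, against 5.66% and 3.39% of naive cells. At 1 read the shares were 56.25% and 25% in inflamed cells and 39.6% and 23.7% in naive cells, so the batches were further apart than the conditions of batch 3. Reads of 2 or more of the 3 receptors were found in 36.25% and 26.3% of inflamed cells and 11.3% and 8.47% of naive cells. Areg and Ereg were found together in 14 of 80 inflamed cells of batch 2, which is 48.3% of the 29 Areg cells and 53.8% of the 26 Ereg cells, where independent detection would give 9.43 cells. In inflamed batch 3 they were found together in 4 of 76 cells, 26.7% of the Areg cells and 40% of the Ereg cells, where independent detection would give 1.97. The rank correlation of Areg with Ereg was 0.325 and 0.236, and that of Areg with Erbb3 was 0.32 and 0.168. Over all 36 pairs of the 9 genes it ranged from -0.252 to 0.325 in inflamed batch 2 and from -0.231 to 0.446 in inflamed batch 3. Cells of 1 group share the batch of the labels, and the rank correlation of single genes with the number of detected genes ranged from -0.262 to 0.395.

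The other genes of the pathway were followed as lists of ligands and receptors outside the set, sheddases, adaptors and kinases, receptor turnover, and ERK feedback and targets. Of the other family genes, 4 of 6 could be tested. Nrg1, a neuregulin that binds Erbb3 and Erbb4, had 1041 and 617.1 CPM in the inflamed sums and 264.9 and 215.0 CPM in the naive sums, 3.93-fold and 2.87-fold higher (log2 1.75 ± 0.31 SE, adjusted p = 0.568 by edgeR and 0.00555 by DESeq2). The inflamed sums lay above both naive sums, which was likewise not counted over all genes, and 91% of all kept cells had a read. Erbb4, the remaining receptor, was barely detected, with 14 and 11 reads in the inflamed sums and 222 and 24 in the naive sums. Nrg2 had 8 and 9 reads in the inflamed sums and 681 and 71 in the naive sums, and Nrg4 went opposite ways in the batches.

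Of the 11 sheddases and their regulators tested, 2 were higher and 2 lower in inflamed cells of both batches. At an unadjusted p under 0.05, 1 was higher and 0 lower, where 5.04% and 3.23% of all genes were. The shares in both batches, 18.2% each way, lay below those of all genes tested (30.9% higher and 27.6% lower). The gene past the unadjusted threshold was Adam10, which releases Btc and Egf, at 664.7 and 729.8 CPM in the inflamed sums and 126.4 and 275.4 CPM in the naive sums (log2 1.90 ± 0.40 SE, adjusted p = 0.568 by edgeR and 0.00412 by DESeq2). Tspan14, a tetraspanin partner of Adam10, had 191.9 and 153.4 CPM in the inflamed sums and 48.2 and 98.7 CPM in the naive sums (adjusted p = 0.602 by edgeR and 0.177 by DESeq2). Adam19, another ADAM protease, had 0.875 and 1.62 CPM in the inflamed sums and 12.5 and 6.40 CPM in the naive sums (adjusted p = 0.740 by edgeR and 0.335 by DESeq2), with reads in 4.48% of all kept cells. Adam17, the main sheddase of Areg, Ereg, Hbegf and Tgfa, had 45.8 and 25.2 CPM in the inflamed sums and 48.7 and 22.8 CPM in the naive sums, a smaller difference than that between batches. Adam17 was added after its values were seen, because of its part in releasing these ligands.

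Downstream, 22 adaptors, Ras proteins and kinases were tested, and 11 were higher and 6 lower in inflamed cells of both batches, with median log2 differences of 0.54 and 0.59. These are 50% and 27.3% of the list, against 30.9% and 27.6% of all genes tested. At an unadjusted p under 0.05, 2 were higher and 1 lower, where 5.04% and 3.23% of all genes were. The higher ones were the GTPase gene Nras, with 2207 and 2426 CPM in the inflamed sums against 1130 and 1285 CPM in the naive sums, and the kinase gene Braf, with 320.8 and 412.9 CPM against 134.5 and 182.8 CPM in naive. Neither tool called them, with an adjusted p of 0.568 for both by edgeR and of 0.196 (Nras) and 0.112 (Braf) by DESeq2. The lower one was Pik3r1, the regulatory subunit of PI3 kinase, with 33.1 and 103.3 CPM in inflamed and 209.4 and 407.6 CPM in naive sums (log2 -2.32 ± 0.40 SE, adjusted p = 0.568 by edgeR and 0.000517 by DESeq2). Map2k1, which encodes the ERK kinase MEK1, had 27.9 and 44.4 CPM in the inflamed sums and 2.06 and 0 CPM in the naive sums, with reads in 12.7% of all kept cells (adjusted p = 0.653 by edgeR and 2.58e-05 by DESeq2). With 0 reads in naive batch 3, this gene too needed the inflamed sums to pass the filter on low counts. In inflamed batch 3, 1 cell gave 60.1% of the Map2k1 reads.

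Of 16 genes of receptor turnover tested, 6 were higher and 5 lower in both batches, and at an unadjusted p under 0.05, 1 was higher and 2 were lower. The shares in both batches, 37.5% and 31.2%, were near the 30.9% and 27.6% of all genes tested. Genes known to restrain the receptor stood on both sides. The ubiquitin ligase Cblb, which marks active Egfr for degradation, had 82.9 and 75.3 CPM in the inflamed sums and 14.6 and 14.1 CPM in the naive sums (log2 2.46 ± 0.65 SE, adjusted p = 0.568 by edgeR and 0.0118 by DESeq2). Its relative Cbl had 24.8 and 112.9 CPM in inflamed and 6.02 and 1.39 CPM in naive sums (adjusted p = 0.594 by edgeR and 0.00105 by DESeq2). Errfi1, an inhibitor that binds the Egfr kinase and is itself induced by Egfr signalling, had 510.2 and 636.1 CPM in inflamed and 1835 and 1357 CPM in naive sums (log2 -1.47 ± 0.33 SE, adjusted p = 0.568 by edgeR and 0.0226 by DESeq2). Lrig2, a transmembrane protein of a family that regulates ErbB receptors, had 19.8 and 43.6 CPM in inflamed and 56.4 and 148.2 CPM in naive sums (log2 -1.64 ± 0.52 SE, adjusted p = 0.568 by edgeR and 0.0888 by DESeq2).

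Of the 19 ERK feedback and target genes tested, 3 were higher and 9 lower in inflamed cells of both batches, with median log2 differences of -0.87 and -0.50. These are 15.8% and 47.4% of the list, against 30.9% and 27.6% of all genes tested. At an unadjusted p under 0.05, 1 was higher and 4 were lower, where 5.04% and 3.23% of all genes were, and none passed edgeR's adjusted threshold. The immediate early gene Egr1 had 375.9 and 802.3 CPM in the inflamed sums and 5671 and 9366 CPM in the naive sums (log2 -3.73 ± 0.27 SE, adjusted p = 0.568 by edgeR and 4.53e-14 by DESeq2). Ier2, another immediate early gene, had 45.5 and 60.5 CPM in inflamed and 138.4 and 214.0 CPM in naive sums (log2 -1.71 ± 0.41 SE, adjusted p = 0.568 by edgeR and 0.0315 by DESeq2). Plaur, the urokinase receptor, was the 1 gene higher at that unadjusted threshold, with 2018 and 1116 CPM in inflamed and 214.9 and 374.4 CPM in naive sums (log2 2.40 ± 0.54 SE, adjusted p = 0.568 by edgeR and 0.000264 by DESeq2). Hmga2 and Etv5, which stood over 4-fold apart in both batches, were nearly undetected: Hmga2 had 6.46 and 2.13 CPM in the inflamed sums and 0.0177 and 0.0421 CPM in the naive sums, and Etv5 had 0.419 and 0.0395 CPM in the inflamed sums and 3.60 and 0.695 CPM in the naive sums.

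**Figure D4:**
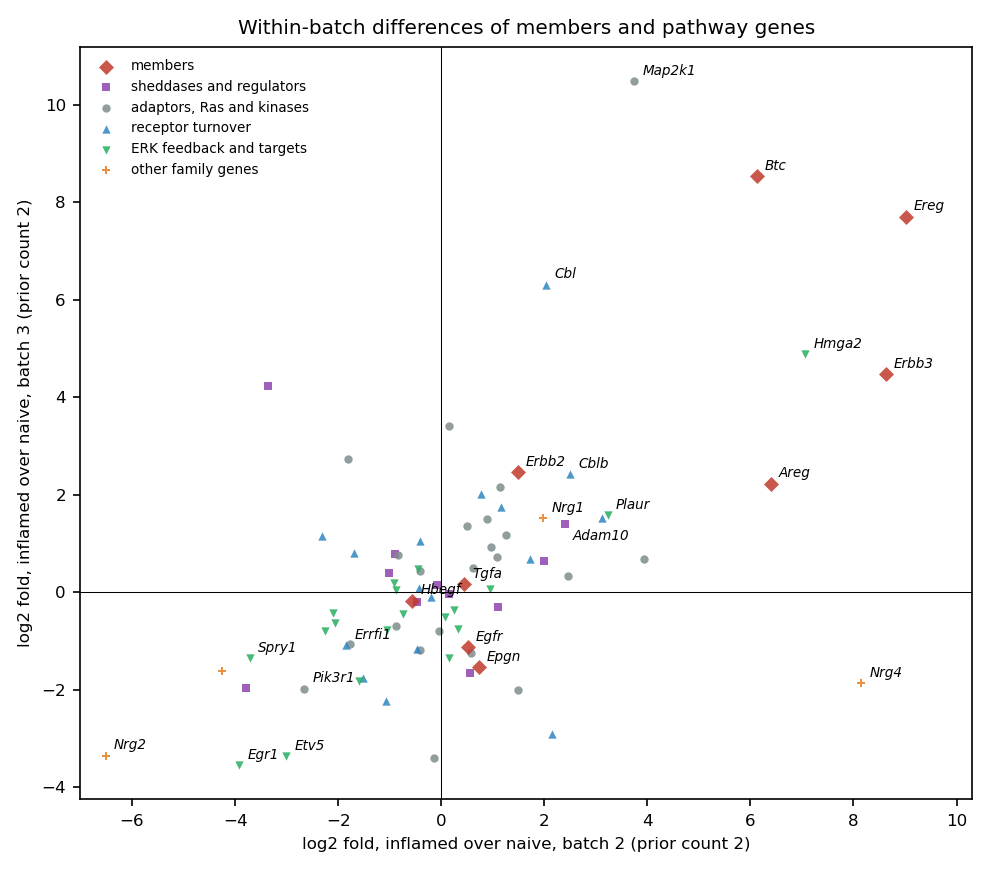
Log2 difference, inflamed over naive, within batch 2 (horizontal axis) and batch 3 (vertical axis) for the 9 ligands and receptors and for the tested genes of the pathway lists, computed on CPM with a prior count of 2, so values of genes at 0 in naive are not bounds. Areg, Ereg, Btc and Erbb3 lay in the upper right, together with Map2k1, Hmga2 and Cbl, and Egr1, Etv5 and Nrg2 lay in the lower left.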

How the data were processed

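Single-cell RNA-seq counts of 282 cells sorted from inflamed or naive prostates of POET3 mice were analysed. The deposited values are whole-number read counts in 48440 gene rows, with each batch in a table of its own. Per the submitters' processing notes, the build was GRCm38.p6 and the tools named, without roles, were Seurat 1.4, R 3.4.1, HTSeq and TopHat2. The chemistry, per the labels' protocols, adds no molecular identifiers, so counts are reads and intervals and floors cover counting error only. No source used here says whether counting used strand, so overlapping antisense genes cannot be told apart. Symbols came from GENCODE for 48058 rows, and 0 rows named no gene.

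Cells with under 1000 detected genes or 50000 counts were left out (14 cells), and no doublet caller was run. Counts were summed per condition and batch and tested with edgeR 4.0.16 in R 4.3.3 (quasi-likelihood F test, TMM, filterByExpr, batch and condition in the model, Benjamini-Hochberg over all genes). That leaves 1 residual degree of freedom beside 2.66 prior ones. The batch of the labels was used to pair the sums. Across 14713 genes the batch difference in inflamed sums had a correlation of -0.0114 with that in naive sums. Almost no batch difference shared by the conditions was thus seen, while the batch term still costs a degree of freedom. Where the batches share mice, the p-values measure technical spread. CPM uses TMM-corrected library sizes, and log2 differences within a batch use a prior count of 2. DESeq2 1.42.0, other normalizations, filters and cell sets were alternatives. Thinning to 500000 counts left out 10 and 4 inflamed and 7 and 4 naive cells of batches 2 and 3. The fitted log2 differences were checked on simulated differences of more abundant genes, without batch effects. That check does not cover rare genes such as Ereg, Btc and Erbb3, and no result on the p-values is given.

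Named pathway genes were the up to 3 lowest p-values of a list plus any 4-fold difference in both batches. The 9 genes and all lists were chosen with earlier results of these data known.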

Additional observations from a re-analysis of the deposited data

Results flagged for a closer look

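The cells left out for low depth entered only the alternative settings that used all deposited cells. They carried reads of 5 of the 6 ligands at a higher level in inflamed than in naive cells, with Areg, Ereg and Epgn at 5 reads or fewer. Hbegf stood at 1420 CPM (212 reads) in the 7 left-out inflamed cells and at 307 CPM (60 reads) in the 7 left-out naive cells. Tgfa stood at 187.6 CPM (28 reads) in the inflamed cells and at 51.2 CPM (10 reads) in the naive cells. These cells held 149289 counts in all in the inflamed group and 195424 in the naive group, over both batches, and the difference was not tested. Batch 2 gave 5 of the inflamed and 2 of the naive cells, and batch 3 gave 2 and 5, so condition was mixed with batch.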

How the results depend on the processing

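The largest change came with the tool: DESeq2 called 927 genes higher and 534 lower (1743 and 1136 at an unadjusted p under 0.05), with log2 differences of 4.33 for Areg, 9.12 for Ereg, 10.5 for Btc and 6.90 for Erbb3 past its threshold. Without the replicate block (no batch term), 1155 genes were higher at an unadjusted p under 0.05. With each sum left out in turn and no batch term, these counts ranged from 366 to 1428 higher and from 297 to 823 lower, and 0 genes passed the adjusted threshold. The lone sum is then assumed to vary like the others. The log2 difference ranged from 2.14 to 6.65 for Areg, 8.27 to 9.79 for Ereg, 10.0 to 12.4 for Btc, 4.03 to 10.7 for Erbb3 and 1.4 to 2.63 for Erbb2, and it changed sign for Hbegf (-0.81 to 0.07, at 0.0676 without the inflamed sum of batch 2), Tgfa (-0.38 to 0.92), Epgn (-1.35 to 0.62) and Egfr (-0.91 to 0.30, with 0.08 without the naive sum of batch 3). Without the richest cell of each sum, a check added after the data were seen, 0 of the 9 genes were lower in both batches, and the same 6 were higher. Btc counted as higher in batch 2 through 1 read only, below the floor of 3 counts. Apart from these sign changes and the DESeq2 calls, the recomputed log2 differences of the 9 genes kept their direction and their side of the threshold. Folds of the 9 genes within a batch were also recomputed under other cell sets and scalings, where both sums had reads. Of these, 29 fell outside their counting interval and 33 inside. Other scalings moved the median of all genes by -0.05 to 0.04 (log2). The causes were not tested. The number of sums, 4, and the few cells behind most reads of Areg, Ereg, Btc, Erbb2 and Erbb3 limit these values.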

Other observations

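The genes whose levels followed a ligand or receptor most closely over single cells were ranked by the mean Spearman correlation over the 4 groups of cells (268 cells, 6981 candidate genes with reads in at least 20% of cells). For Hbegf these were Fhl2 (0.378), the immediate early gene Ier3 (0.374) and the claudin gene Cldn4 (0.354). For Epgn they were B130021K23Rik (0.3), Mfsd1 (0.258) and Zdhhc13 (0.253), for Egfr Hnrnpm (0.293), Usp47 (0.292) and Rbpms (0.285), and for Tgfa Camk2d (0.246), Rnf7 (0.243) and Otud1 (0.243). The ranking was made for members detected in 20% or more of inflamed cells, or of naive cells, in both batches. Areg missed this in inflamed batch 3 (19.7%) and in naive cells and was added after its values were seen, and the inflamed cells alone gave Lamtor4 (0.306), Dpf2 (0.306) and Psmd6 (0.301). The cells of a group share depth and batch, and the correlations are weak.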
